A study of Mus musculus with 12 samples.

Results

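The question addressed here was for which genes the effect of IL-2 in mouse CD4 T blast cells (TB) differed before and after restimulation. The quantity was the interaction contrast, namely the difference TB+ IL-2 minus TB+ IL-2nil less the difference TB IL-2 minus TB IL-2nil, in all 12 RNA-Seq libraries of the series and all genes tested. It was selected on these data, since the contrast and the 2 IL-2 effects in it decide which genes are described and into which class they fall. Of 12442 genes tested, 526 (4.23%) had an adjusted P under 0.05 in this contrast, out of 24439 genes listed. The value of a gene in the contrast is therefore a description. Promoter sequences did not enter the rule, and the gene lists used below were made with earlier results of these data known.

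The 12 libraries fall into 4 groups of 3. CD4 T cells were purified from the spleens of C57BL/6 C42 mice, a line that carries a 130-kb fragment of human DNA with *IL3* and *CSF2*, so every group shares this transgene and no other line was measured. All cultures were activated with 2 µg/ml concanavalin A, a lectin that crosslinks the T cell receptor, for 40 h. They were then expanded with IL-2 at 50 U/ml, over 2 days by the sample labels and 30 h by the study's methods. IL-2 was then left in the medium (TB IL-2) or taken out for 16 h (TB IL-2nil). Cells of either kind also received PMA at 20 ng/ml, a phorbol ester that activates protein kinase C, with the calcium ionophore A23187 at 2 µM over a period of 2 h (TB+ IL-2 and TB+ IL-2nil). This pair of drugs, PMA/I, stands in for signals of the T cell receptor. The labels do not say whether libraries of a group came from separate mice or cultures, so that P-values here measure the spread between these libraries, which may be technical. All 4 groups are bulk cultures, in which fewer cells of a type and less RNA per cell cannot be told apart.

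IL-2 signals through a receptor of 3 chains, of which IL2RA gives it high affinity, and activates JAK kinases and the transcription factor STAT5, beside the PI3K and MAPK pathways. Its known targets in T cells include the feedback inhibitors of the SOCS family, survival genes of the BCL-2 family, and MYC, which drives ribosome synthesis and growth. Signals of the T cell receptor, which PMA/I mimics, act through MAPK, protein kinase C and calcineurin on AP-1, NF-kB and NFAT factors. The 2 inputs thus share some targets and differ in others, which is what an interaction contrast separates.

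The libraries labelled TB IL-2nil replicate 3 and TB+ IL-2 replicate 3 were placed in each other's group, because the study's own per-library expression table holds them that way. In that table, 10 of 12 columns were met best by the library of the same label, and the other 2 columns met each other's library at 97.2% and 99.0% of values within 0.1%, and the library of the same label at 0%. The *Il2* level was 1368 FPKM in the library labelled TB IL-2nil replicate 3 and 0.29 FPKM in the library labelled TB+ IL-2 replicate 3. The remaining TB libraries were at 0 to 1.18 FPKM, and the remaining TB+ libraries at 1095 to 2374 FPKM. The TB+ cells held *Il2* RNA in both groups, so that without IL-2 means here without added IL-2. The part of IL-2 made by the cells was not tested. The study's methods do not state whether IL-2 was in the medium during PMA/I. Below, replicate 3 of TB IL-2nil and of TB+ IL-2 is the library moved into that group, and values are given for replicates 1, 2 and 3 in this order. Both groups enter the contrast with the same sign, so the estimates were equal in either placement and only the errors changed, with a median standard error (SE) of 0.32 as placed and 0.52 as labelled. As labelled, limma called 0 genes, and 413 had an unadjusted P under 0.05. With both libraries left out, 4 genes were called, 2 of which are among the 526, and 2211 had an unadjusted P under 0.05. In that fit all 526 genes kept their sign and had an unadjusted P under 0.05, and their estimates were 0.75 to 1.29 times those of the full set. This fit reuses libraries that chose the 526 genes, so their signs and P-values in it are no separate support.

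IL-2 had the wider effect before PMA/I, where 4929 genes (39.6% of those tested) were called, against 2644 (21.3%) after it. In the contrast, 331 genes (2.66%) were lower, meaning that IL-2 raised them less or lowered them more after PMA/I, and 195 (1.57%) were higher. With the replicate number as a block, 718 genes (5.77%) were lower and 760 (6.11%) higher, and all 526 genes stayed called. Leaving out 1 library at a time gave 630 calls without TB IL-2 replicate 1, 95 and 117 without TB IL-2 replicates 2 and 3, and 287, 84 and 105 without TB IL-2nil replicates 1, 2 and 3, by their labels. It gave 176, 121 and 285 without TB+ IL-2 replicates 1, 2 and 3, 116 and 152 without TB+ IL-2nil replicates 1 and 2, and 1302 without TB+ IL-2nil replicate 3. The count moved by over 1.5 times in 11 of these 12 fits, and all 526 genes kept their sign in each of them. Each fit reuses libraries that chose the genes, so the kept sign adds no support. At the threshold, *Zfp61* was just inside (0.89, SE 0.22, adjusted P = 0.0498) and *4930515G01Rik* just outside (0.995, SE 0.25, adjusted P = 0.0501).

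The median of the contrast over all genes tested was 0.16 in log2(TPM + 1), where TPM is a length-corrected share of all transcripts, scaled to a fixed sum per library. It was 0.06 after quantile normalization and 0.51 without scaling between libraries. The median contrast of a list below is therefore to be read against that of all genes in the same fit. All log2 differences use this scale, on which the change of a gene near 0 TPM comes out too small. Over the 12442 genes, the IL-2 effects before and after PMA/I, which share no library, had a correlation of 0.595, where genes are not independent of each other.

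The 526 genes fell into classes by whether the IL-2 effect passed an adjusted P under 0.05 before and after PMA/I. In 393 genes it was lost, passing before PMA/I and not after it. In 67 it was created, passing only after PMA/I, in 38 it was reversed, passing on both sides with opposite signs, and in 26 it was weakened and in 2 strengthened with its sign kept. With the block these counts were 927 lost, 278 created, 124 reversed and 141 kept in sign. Of the 393 lost genes, 361 were also lost with the block, 28 reversed and 4 weakened, and of the 67 created genes 57 were also created and 10 reversed. The effect that was lost was an increase by IL-2 in 246 genes and a decrease in 147. For the 246 genes the median IL-2 effect was 1.45 before PMA/I and -0.28 after it. PMA/I raised 238 of these genes in cells without IL-2 (median 2.19) and 110 in cells with IL-2 (median 0.54), and in 199 of them the mean of TB+ IL-2nil was at or above that of TB IL-2. For the 147 genes that IL-2 lowered, the median effect was -1.24 before PMA/I and 0.06 after it, and PMA/I lowered 143 of them without IL-2 (median -1.89) and 69 with it (median -0.56). The effects of PMA/I share libraries with the IL-2 effects that chose the class, so these counts are a description of it and nothing is read from them. The plot of the IL-2 effects before and after PMA/I shows the classes.

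**Figure D1:**
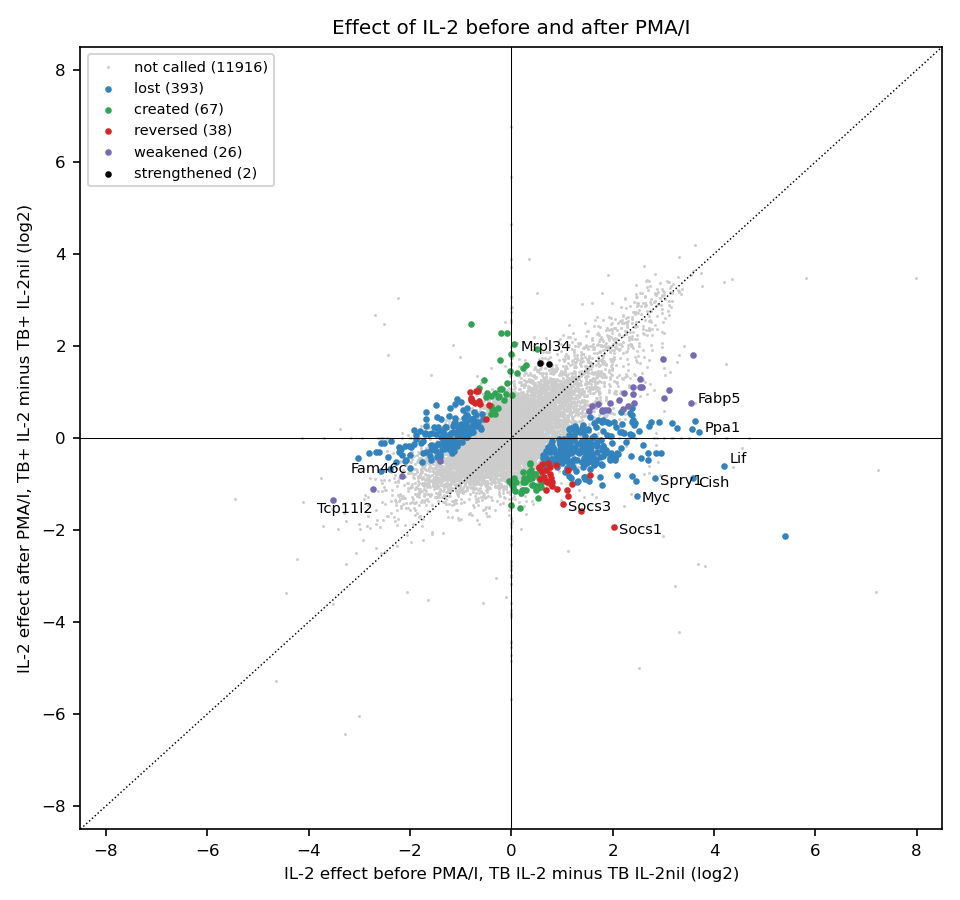
IL-2 effect of every gene tested before PMA/I (horizontal axis, log2) and after PMA/I (vertical axis, log2), coloured by class for the 526 genes called in the contrast and grey for the rest, with the dotted line where both effects are equal. The 393 lost genes are those without a call on the vertical axis, where their median was -0.14, and the 38 reversed genes lie in the quadrants of opposite sign.

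Feedback inhibitors of the JAK and STAT pathway were among the genes with large differences. *Cish*, which encodes the SOCS family protein CIS and is a direct target of STAT5, lies on chromosome 9 (plus strand, bases 107198357 to 107205115) in the GENCODE M1 gene models of mm9. Its levels were 157, 197 and 145 TPM in TB IL-2, 15.5, 5.11 and 25.1 TPM in TB IL-2nil, 363, 229 and 290.4 TPM in TB+ IL-2 and 659.7, 432 and 524 TPM in TB+ IL-2nil. Before PMA/I every library with IL-2 was above every library without it, and after PMA/I every library without IL-2 was above every library with it. Its IL-2 effect was 3.59 before PMA/I (adjusted P = 1.80e-04) and -0.87 after it (adjusted P = 0.170), and the contrast was -4.46 (SE 0.60, adjusted P = 0.0108). It was also called without the 2 moved libraries, at -4.92, with an adjusted P = 0.0306 in a range of 0.00489 to 0.914 over all alternatives.

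Around the start of *Cish*, a window of 30 bases (chr9:107296654-107296683, plus strand, RefSeq promoters on GRCm38.p6) holds a pair of matches to the STAT motif TTCNNNGAA in capitals, which begin at bases 1 and 12 after the start. It is shown because STAT5 is known to bind near the start of this gene.
Cish: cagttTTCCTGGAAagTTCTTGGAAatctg

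*Socs1*, an inhibitor of JAK kinases, is on chromosome 16 (minus strand, bases 10783901 to 10785629), and was the reversed gene with the largest contrast. Its levels were 228, 396 and 132 TPM in TB IL-2, 63.8, 74.5 and 35.5 TPM in TB IL-2nil, 112, 69.7 and 91.6 TPM in TB+ IL-2 and 568, 232 and 311 TPM in TB+ IL-2nil. The groups with and without IL-2 did not overlap on either side of PMA/I, with IL-2 on top before it and at the bottom after it. With an IL-2 effect of 2.03 before PMA/I (adjusted P = 0.00434) and -1.94 after it (adjusted P = 0.0107), this gave a contrast of -3.96 (SE 0.62, adjusted P = 0.0125). PMA/I raised *Socs1* by 2.62 in cells without IL-2, while in cells with IL-2 the difference was -1.34.

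*Socs3*, which binds JAK kinases and the receptor of the IL-6 family, also reversed. By library it had 25.4, 44.2 and 27 TPM in TB IL-2, 16.3, 12 and 16.9 TPM in TB IL-2nil, 54.4, 34.8 and 36.7 TPM in TB+ IL-2 and 121, 87.1 and 135 TPM in TB+ IL-2nil, again without overlap on either side. IL-2 changed it by 1.02 before PMA/I (adjusted P = 0.0109) and -1.43 after it (adjusted P = 0.00384), and the contrast was -2.45 (SE 0.37, adjusted P = 0.0122). The 250 bases before its start (chr11:117969367-117969616, minus strand, GRCm38.p6) hold 1 match to TTCNNNGAA, which begins 154 bases before the start and is in capitals here.
Socs3: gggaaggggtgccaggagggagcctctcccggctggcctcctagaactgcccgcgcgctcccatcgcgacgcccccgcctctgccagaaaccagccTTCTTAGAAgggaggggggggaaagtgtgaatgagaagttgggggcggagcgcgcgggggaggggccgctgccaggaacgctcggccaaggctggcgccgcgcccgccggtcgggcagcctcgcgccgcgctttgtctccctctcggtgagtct

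*Lif*, an IL-6 family cytokine, had the largest decrease of all called genes that met the naming rule, and its gene is on chromosome 11 (plus strand, bases 4157560 to 4172517). It was at 24.2, 47.5 and 34.1 TPM in TB IL-2, 0.769, 0.871 and 1.08 TPM in TB IL-2nil, 943, 173 and 370.2 TPM in TB+ IL-2 and 1400.4, 327 and 461 TPM in TB+ IL-2nil. IL-2 therefore separated the libraries without overlap before PMA/I, and the groups overlapped after it. Between groups the IL-2 effect was 4.20 before PMA/I (adjusted P = 4.97e-04) and -0.60 after it (adjusted P = 0.515), with a contrast of -4.80 (SE 0.85, adjusted P = 0.0198).

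*Il2ra*, the gene of the high-affinity chain of the IL-2 receptor, located on chromosome 2 (plus strand, bases 11564419 to 11614818), was at 339, 759 and 229 TPM in TB IL-2, 58.6, 81 and 74.4 TPM in TB IL-2nil, 848, 805 and 630.1 TPM in TB+ IL-2 and 668, 600.3 and 554 TPM in TB+ IL-2nil. The libraries without IL-2 were the lowest before PMA/I, and the TB+ groups overlapped. For *Il2ra* the IL-2 effect was 2.45 before PMA/I (adjusted P = 4.76e-04) and 0.32 after it (adjusted P = 0.553), and its contrast -2.13 (SE 0.49, adjusted P = 0.0389). Of the 23 genes in the list of IL-2 and STAT5 targets, 8 (34.8%) were called lower and 0 higher, against 2.66% and 1.57% of all genes, and 20 were below 0. The median contrast of the list was -1.5, from a median IL-2 effect of 1.79 before PMA/I and -0.32 after it, and it was -1.69 without the 2 moved libraries. The 8 were *Cish*, *Socs1*, *Socs3*, *Il2ra*, *Lif*, *Myc* and the survival genes *Bcl2* (-2.29 (SE 0.54, adjusted P = 0.0403)) and *Bcl2l1* (-2.17 (SE 0.37, adjusted P = 0.0179)). *Bmf*, whose product opposes BCL-2 survival proteins, went the other way at 1.04 (SE 0.21, adjusted P = 0.0268), with at most 2.06 TPM in any library. It completes 3 calls among 16 genes of the BCL-2 family, 2 lower (12.5%) and 1 higher (6.25%), against 2.66% and 1.57% of all genes.

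**Figure D2:**
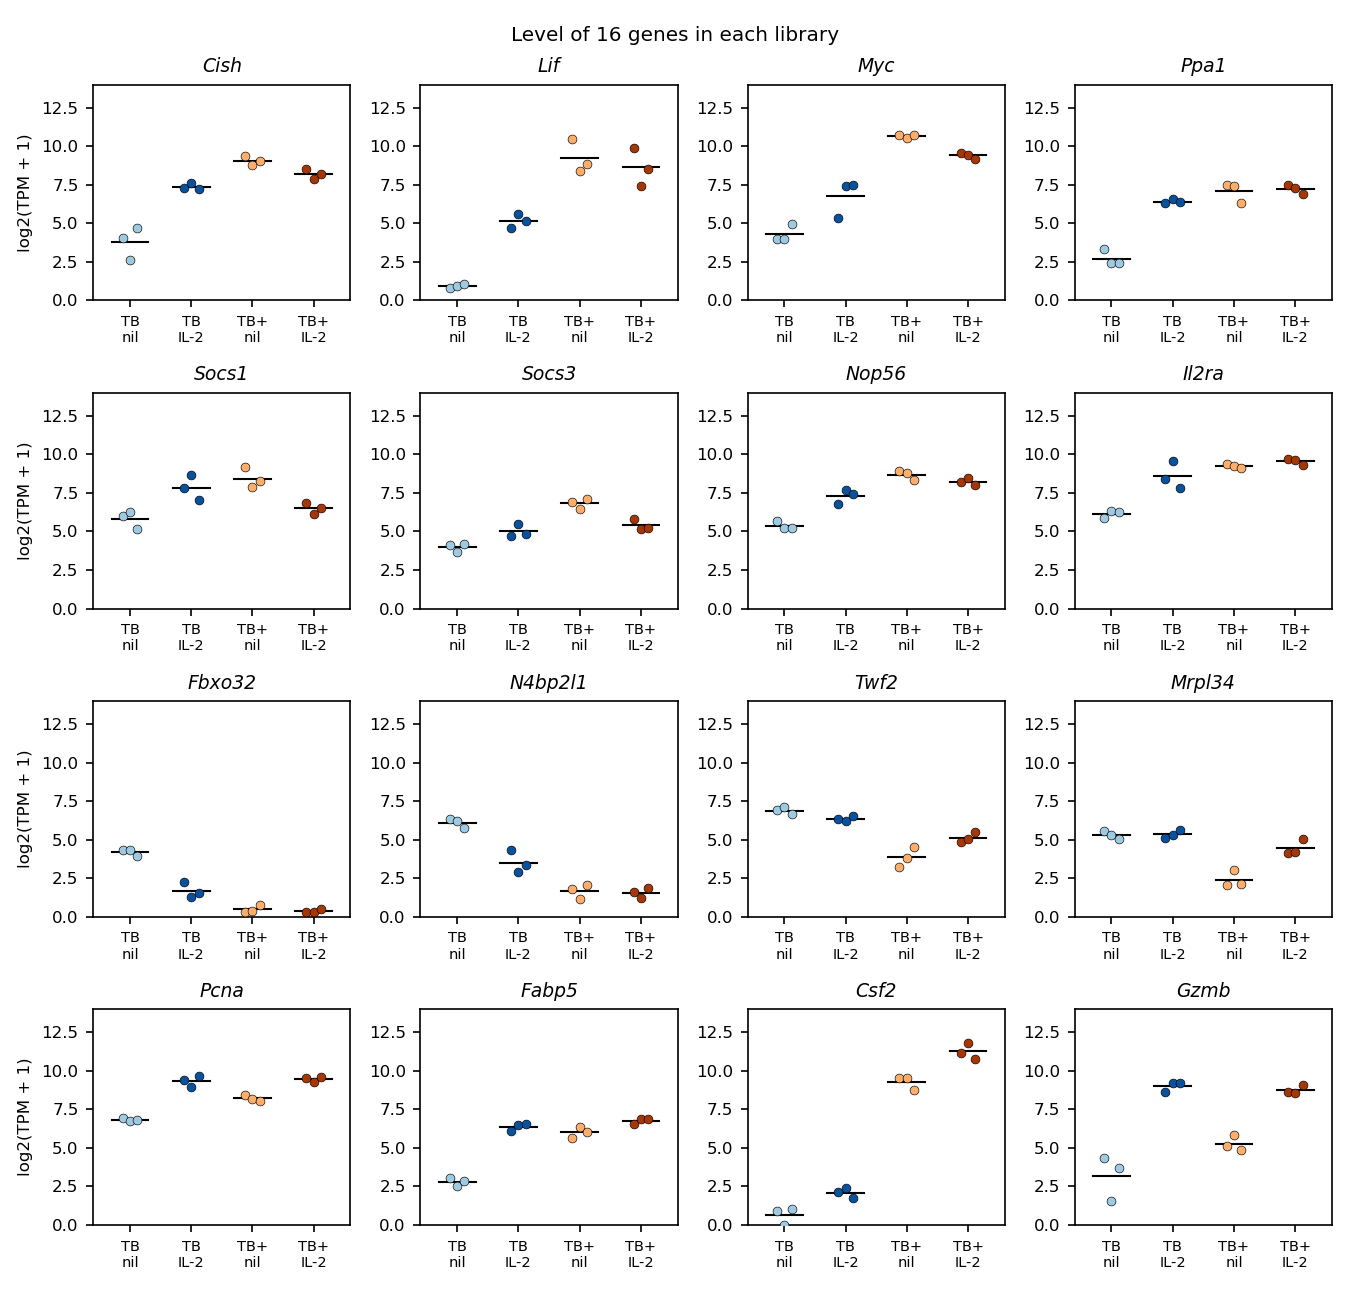
Level of 16 genes in each library as log2(TPM + 1), with 1 panel per gene, the 4 groups on the horizontal axis (nil, without IL-2), 1 point per library and a bar at the group mean. In *Socs1* and *Socs3* the order of the IL-2 and nil groups turns over between TB and TB+, in *Twf2* and *Mrpl34* the groups part in TB+, and in *Csf2* and *Gzmb* the libraries with IL-2 are higher on both sides.

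*Myc*, the transcription factor of cell growth, located on chromosome 15 (plus strand, bases 61816946 to 61821929), was at 40.2, 170.3 and 180.2 TPM in TB IL-2, 14.8, 14.4 and 29.2 TPM in TB IL-2nil, 757, 697 and 574 TPM in TB+ IL-2 and 1666, 1465 and 1680.0 TPM in TB+ IL-2nil. All TB IL-2 libraries were above all TB IL-2nil libraries, and all TB+ IL-2nil libraries were above all TB+ IL-2 libraries. The effect of IL-2 was 2.48 before PMA/I (adjusted P = 0.00250) and -1.25 after it (adjusted P = 0.0880), and the contrast was -3.73 (SE 0.68, adjusted P = 0.0209). PMA/I moved *Myc* by 2.63 with IL-2 and 6.36 without it.

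Genes of ribosome biogenesis formed the list with the highest share of calls. Of 37 tested, 21 (56.8%, against 2.66% of all genes) were lower in the contrast and 0 higher, and 36 were below 0. The median contrast was -1.63, and ranged from -1.16 without scaling to -1.74 with quantile normalization, where that of all genes was 0.51 and 0.06. IL-2 raised 28 of the 37 before PMA/I, with a median of 1.21, and none of them passed the test in either direction after it, with a median of -0.38. Of all genes, 39.6% were called in either direction before PMA/I and 21.3% after it. With the block *Polr1e* (adjusted P = 0.0415) and *Noc3l* (adjusted P = 0.0404) passed after PMA/I in limma. PMA/I raised 36 of the 37 in cells without IL-2 and 29 in cells with it. The list's median PMA/I effect was 2.61 without IL-2 and 1.01 with it, against -0.38 and -0.22 over all genes.

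*Nop56*, a core protein of box C/D small nucleolar RNPs, located on chromosome 2 (plus strand, bases 130100166 to 130105049), was at 108, 201 and 174 TPM in TB IL-2, 49.2, 36.1 and 35.6 TPM in TB IL-2nil, 296, 350.4 and 263 TPM in TB+ IL-2 and 482, 436 and 321 TPM in TB+ IL-2nil. The groups parted before PMA/I and overlapped after it, and the contrast was -2.37 (SE 0.36, adjusted P = 0.0118). *Nop58* of the same particle had -2.40 (SE 0.41, adjusted P = 0.0178), and the methyltransferase gene *Fbl* had -1.87 (SE 0.28, adjusted P = 0.0119). *Polr1b*, a subunit of RNA polymerase I, had -2.34 (SE 0.54, adjusted P = 0.0389), and the nucleolar genes *Nolc1* and *Gnl3* had -2.43 and -2.37. *Utp14b*, of the small-subunit processome, reversed. It was at 12.1, 19 and 15.4 TPM in TB IL-2, 5.18, 4.54 and 3.90 TPM in TB IL-2nil, 44.2, 49 and 33.8 TPM in TB+ IL-2 and 88, 66.9 and 67 TPM in TB+ IL-2nil, with no overlap between groups on either side. Its IL-2 effect was 1.56 before PMA/I (adjusted P = 3.14e-04) and -0.79 after it (adjusted P = 0.020) and the contrast -2.36 (SE 0.29, adjusted P = 0.0106). This gene is a retrocopy of *Utp14a* within another gene, so how reads were divided between them is uncertain.

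Further named genes with a lower contrast have roles in metabolism and transport. *Ppa1*, the cytosolic pyrophosphatase, located on chromosome 10 (plus strand, bases 61111300 to 61136916), was at 77, 92.3 and 83.1 TPM in TB IL-2, 8.95, 4.33 and 4.26 TPM in TB IL-2nil, 175, 152 and 120.2 TPM in TB+ IL-2 and 179.7, 170.0 and 79.8 TPM in TB+ IL-2nil. IL-2 raised it before PMA/I with no overlap of the groups, which overlapped after PMA/I. The IL-2 effect was 3.70 before PMA/I (adjusted P = 5.37e-05) and 0.13 after it (adjusted P = 0.817), and the contrast -3.57 (SE 0.46, adjusted P = 0.0106). *Srm*, spermidine synthase, was at 45.4, 134 and 73.5 TPM in TB IL-2, 16.7, 4.51 and 9.26 TPM in TB IL-2nil, 174, 217 and 163 TPM in TB+ IL-2 and 267, 294 and 158 TPM in TB+ IL-2nil, and its contrast was -3.29 (SE 0.64, adjusted P = 0.0253). The TB+ libraries of *Srm* overlapped too. *Mfsd2a*, a transporter of lysophospholipids, went from at most 1.10 TPM in TB IL-2nil and 4.47 to 15.4 TPM in TB IL-2 to 141 to 217 TPM in TB+ IL-2nil and 68.2 to 113 TPM in TB+ IL-2, with a contrast of -3.40 (SE 0.50, adjusted P = 0.0116). *Cdca7*, a MYC target of dividing cells, had -3.37 (SE 0.45, adjusted P = 0.0106), with 50.4 to 68.7 TPM in TB IL-2, 2.61 to 6.28 TPM in TB IL-2nil and 19.1 to 42.5 TPM over the 6 TB+ libraries.

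In the list of sterol and fatty acid synthesis, 5 of 29 genes (17.2%) were lower and 0 higher, among them *Sqle* (-3.0), *Idi1* (-2.57) and *Cyp51* (-2.35), enzymes of cholesterol synthesis, and *Fasn* (-2.19), the fatty acid synthase. *Cyp51* was at 41.1, 62.4 and 55.7 TPM in TB IL-2, 10.7, 10.1 and 9.64 TPM in TB IL-2nil, 219.7, 194 and 155 TPM in TB+ IL-2 and 250.2, 187 and 168 TPM in TB+ IL-2nil, and its groups overlapped only after PMA/I. The list's median contrast was -0.41, against 0.16 for all genes, from IL-2 effects of 1.41 before and 0.62 after PMA/I. Without scaling it was -0.05, against 0.51 for all genes. Of 32 genes of glycolysis and hypoxia 3 (9.38%, against 2.66% of all genes) were lower, namely *Hk2* (-3.01 (SE 0.59, adjusted P = 0.0265)), a hexokinase, the lactate carrier *Slc16a1* (-2.47) and *Pgam1* (-2.03). Of 39 ATF4 and amino acid genes 2 (5.13%) were lower, the amino acid carriers *Slc7a1* (-2.77) and *Slc7a5* (-2.76), and 5 were lower and 1 higher with the block, by which 5.77% and 6.11% of all genes were.

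The letters of promoters were compared without a test. RefSeq promoters (GRCm38.p6, 250 bases before to 50 after each start) were found for 266 of the 331 genes that were lower, 159 of the 195 that were higher and 9530 of the 12442 tested, some with several starts, and both strands were searched. The E-box CACGTG, a motif that MYC binds, was in 18.4% of the promoters of lower genes, 6.84% of those of higher genes, 10.1% of those of all genes tested and 7.15% of all promoters in the table. In the 34 promoters of ribosome biogenesis genes, the E-box was in 29.4%, the STAT motif in 11.8%, the NFAT core in 70.6%, the E2F motif in 5.88% and the AP-1 motif in 0%, where 1 promoter is 2.94%. The STAT motif TTCNNNGAA was in 6.88% of the promoters of lower genes and 6.84% of those of higher genes, against 7.08% for all tested and 8.3% of the table. The AP-1 motif TGANTCA was in 4.38%, 3.16% and 5.01% of lower, higher and all tested, and 7.81% of the table. The NFAT core GGAAA, which can overlap the STAT motif, was in 58.1%, 54.7% and 59.3%, and in 61.3% of the table. Those of EGR (GCGTGGGCG), E2F (TTTCCCGC), ATF4 (TGATGNAAN) and NF-kB were each in at most 3.95% of lower, higher, all tested and all promoters in the table.

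The E-boxes of called genes are shown in capitals with their surroundings, in windows of 30 bases, for list members with 1 listed start and a match before it. They begin 121 (*Imp4*, chr1:34439696-34439725), 118 (*Ran*, chr5:129020026-129020055), 200 (*Slc16a1*, chr3:104638452-104638481) and 74 (*Tnfrsf4*, chr4:156013609-156013638) bases before the start, all on the plus strand. *Imp4* belongs to the small-subunit processome, *Ran* is the GTPase of nuclear transport, and *Tnfrsf4* is the costimulatory receptor OX40.
Imp4: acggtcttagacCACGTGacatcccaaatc
Ran: gctcggccggccCACGTGacccgccgcccc
Slc16a1: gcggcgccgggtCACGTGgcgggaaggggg
Tnfrsf4: aatgcctgtgtgCACGTGtgtgtttctttg
Whole upstream stretches of 250 bases follow for *Ppa1* (chr10:61648371-61648620, plus strand) with an E-box 140 bases before its start, and for *Utp14b* (chr1:78658190-78658439, plus strand), which holds both a STAT match at 137 bases and an E-box at 63 bases before its start.
Ppa1: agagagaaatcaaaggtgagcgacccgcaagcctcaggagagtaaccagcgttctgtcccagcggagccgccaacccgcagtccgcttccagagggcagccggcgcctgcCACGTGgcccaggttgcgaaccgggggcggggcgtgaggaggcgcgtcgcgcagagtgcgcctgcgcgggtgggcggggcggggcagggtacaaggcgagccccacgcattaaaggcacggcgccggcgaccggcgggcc
Utp14b: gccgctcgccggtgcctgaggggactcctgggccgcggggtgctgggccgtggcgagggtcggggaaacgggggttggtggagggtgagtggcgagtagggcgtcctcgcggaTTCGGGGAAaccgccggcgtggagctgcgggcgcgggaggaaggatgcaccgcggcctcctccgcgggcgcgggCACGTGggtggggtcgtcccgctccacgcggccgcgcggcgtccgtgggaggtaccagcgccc

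Among inhibitors of MAPK signalling, 2 of 14 genes (14.3%) were lower and 0 higher, and 4 were lower with the block. Of all genes 2.66% were lower, and 5.77% with the block. *Spry1*, which restrains ERK activation by receptors, located on chromosome 3 (plus strand, bases 37538869 to 37543520), was at 5.72, 22.3 and 9.61 TPM in TB IL-2, 0.789, 0.321 and 0.894 TPM in TB IL-2nil, 875, 652 and 534 TPM in TB+ IL-2 and 1642, 1159.8 and 968 TPM in TB+ IL-2nil. Libraries with IL-2 were above those without it before PMA/I, and below all of them after it. Its IL-2 effect was 2.84 before PMA/I (adjusted P = 4.10e-04) and -0.86 after it (adjusted P = 0.142), and its contrast -3.71 (SE 0.56, adjusted P = 0.0118). *Spred1*, a related inhibitor, reversed, from an IL-2 effect of 0.80 before PMA/I (adjusted P = 0.0330) and -0.96 after it (adjusted P = 0.0261), with a contrast of -1.76 (SE 0.37, adjusted P = 0.0309). The list's median was -0.92, with 0.04 before and -0.83 after PMA/I.

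Immediate-early transcription factors had 2 of 27 (7.41%) lower and 0 higher, and 6 lower with the block. The shares of all genes that were lower were 2.66% without the block and 5.77% with it. *Atf3*, a stress-induced factor of the ATF family, located on chromosome 1 (minus strand, bases 192994175 to 193007219), was at 1.88, 2.15 and 2.46 TPM in TB IL-2, 0.214, 0.413 and 0.791 TPM in TB IL-2nil, 379, 273 and 249.9 TPM in TB+ IL-2 and 1155, 431 and 723 TPM in TB+ IL-2nil, with no overlap of the groups on either side. It reversed, from an IL-2 effect of 1.12 before PMA/I (adjusted P = 0.0155) and -1.26 after it (adjusted P = 0.0160), and its contrast was -2.38 (SE 0.44, adjusted P = 0.0226). *Irf8*, a partner of BATF and ETS factors, was at 21.2, 70.8 and 16.4 TPM in TB IL-2, 4.09, 5.99 and 4.57 TPM in TB IL-2nil, 267, 421 and 170.2 TPM in TB+ IL-2 and 445, 723 and 339 TPM in TB+ IL-2nil, with overlap only after PMA/I and a contrast of -3.21 (SE 0.71, adjusted P = 0.0336). With the block its IL-2 effect after PMA/I, -0.83, passed the test in limma (adjusted P = 0.0446, against 0.262 without it), which makes it reversed. Of the 27 genes, 23 were below 0 and the median was -0.93. *Epcam*, an adhesion molecule best known from epithelia, was the other reversed gene named by the rule, with 1.12 to 2.65 TPM in TB IL-2, 0.136 to 0.275 TPM in TB IL-2nil, 5.99 to 10.4 TPM in TB+ IL-2 and 15.2 to 26 TPM in TB+ IL-2nil, and a contrast of -2.22 (SE 0.38, adjusted P = 0.0179). *Tnfrsf4* was the gene called among 22 (4.55%, against 2.66% of all genes lower) of the TNF receptor and ligand superfamily. It had 112, 139 and 73.9 TPM in TB IL-2, 38.7, 36.4 and 36.9 TPM in TB IL-2nil, 596, 627 and 425 TPM in TB+ IL-2 and 856, 906 and 655 TPM in TB+ IL-2nil, so that the libraries with IL-2 were on top before PMA/I and at the bottom after it, and a contrast of -2.02 (SE 0.34, adjusted P = 0.0161). It was lost without the block and reversed with it, by an IL-2 effect after PMA/I of -0.56 (adjusted P = 0.120 and 0.0271 in limma).

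The genes that were higher in the contrast were mostly genes that IL-2 lowered before PMA/I. *Fam46c*, a poly(A) polymerase gene, located on chromosome 3 (minus strand, bases 100255551 to 100293247), had the largest contrast of this direction among the genes named here. It was at 52.7, 14.9 and 21.8 TPM in TB IL-2, 275, 255 and 147 TPM in TB IL-2nil, 28.6, 24.7 and 20.4 TPM in TB+ IL-2 and 27.4, 34.1 and 39.1 TPM in TB+ IL-2nil. The TB IL-2nil libraries stood above all others, and the TB+ groups overlapped. The difference by IL-2 was -3.02 before PMA/I (adjusted P = 2.84e-04) and -0.43 after it (adjusted P = 0.466), and the contrast 2.59 (SE 0.56, adjusted P = 0.0313). *Fbxo32*, the ubiquitin ligase subunit atrogin-1 and a known FOXO target, located on chromosome 15 (minus strand, bases 58011634 to 58046433), was at 3.68, 1.42 and 1.95 TPM in TB IL-2, 19.5, 18.9 and 14.2 TPM in TB IL-2nil, 0.213, 0.231 and 0.448 TPM in TB+ IL-2 and 0.213, 0.301 and 0.713 TPM in TB+ IL-2nil, and its contrast was 2.41 (SE 0.34, adjusted P = 0.0116). As in *Fam46c*, the 3 TB IL-2nil libraries were the highest. Unlike *Fam46c*, no TB+ library of *Fbxo32* exceeded 0.713 TPM, so that an IL-2 effect after PMA/I could hardly show on this scale.

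*N4bp2l1* was at 18.7, 6.42 and 9.31 TPM in TB IL-2, 79.3, 72.8 and 52.3 TPM in TB IL-2nil, 2.06, 1.31 and 2.57 TPM in TB+ IL-2 and 2.42, 1.18 and 3.2 TPM in TB+ IL-2nil, with a contrast of 2.47 (SE 0.50, adjusted P = 0.0277). The TB+ libraries, at most 3.2 TPM, were all below the lowest TB library. *Spata13*, a guanine nucleotide exchange factor, was at 42.9, 33.1 and 40 TPM in TB IL-2, 113, 166 and 107 TPM in TB IL-2nil, 19.3, 16.3 and 22.6 TPM in TB+ IL-2 and 11.2, 9.03 and 20.2 TPM in TB+ IL-2nil, with a contrast of 2.25 (SE 0.39, adjusted P = 0.0179), and *Mylip*, a ubiquitin ligase for the LDL receptor, had 2.21 (SE 0.52, adjusted P = 0.0423). *Mturn* (2.48 (SE 0.50, adjusted P = 0.0267)), the NKG2D ligand gene *H60b* (2.30 (SE 0.53, adjusted P = 0.0381)) and the interferon-inducible gene *Ifi214* (2.08 (SE 0.38, adjusted P = 0.0209)) complete the lost genes of this direction named by the rule. The last 2 belong to families of similar genes, between which reads may have been divided.

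Of 20 genes of naive T cells and quiescence, 2 (10%) were higher and 0 lower, and 6 were higher with the block. Over all genes 1.57% were higher, and 6.11% with the block. Both called genes, *Btg1* and *Tob1*, encode antiproliferative proteins that recruit the deadenylase of mRNA. *Btg1* was at 59, 39.7 and 70.1 TPM in TB IL-2, 328, 356 and 424 TPM in TB IL-2nil, 388, 371 and 272 TPM in TB+ IL-2 and 815, 630.3 and 759.5 TPM in TB+ IL-2nil, higher without IL-2 on both sides with no overlap, and its effect was weakened from -2.72 to -1.10, with a contrast of 1.62 (SE 0.32, adjusted P = 0.0265). *Tob1* had 1.78 (SE 0.42, adjusted P = 0.0416). The list's median was 1.19, from -1.73 before PMA/I, where IL-2 lowered 18 of the 20, to -0.69 after it, where IL-2 lowered 7. In either direction, IL-2 changed 39.6% of all genes before PMA/I and 21.3% after it. The summed level of the 5 B cell markers listed moved with these genes, at 25.2 to 34.0 TPM in TB IL-2nil against 6.82 to 14.7 in TB IL-2, 2.48 to 3.79 in TB+ IL-2 and 4.58 to 12.5 in TB+ IL-2nil, with 0 of the 5 called and none at 0. The sums of T cell markers (3563 to 4648 TPM, at most 3517 elsewhere) and of myeloid markers (4.35 to 4.74 TPM, at most 4.34 elsewhere) were also highest in the 3 TB IL-2nil libraries. The part of these in the result was not tested.

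**Figure D3:**
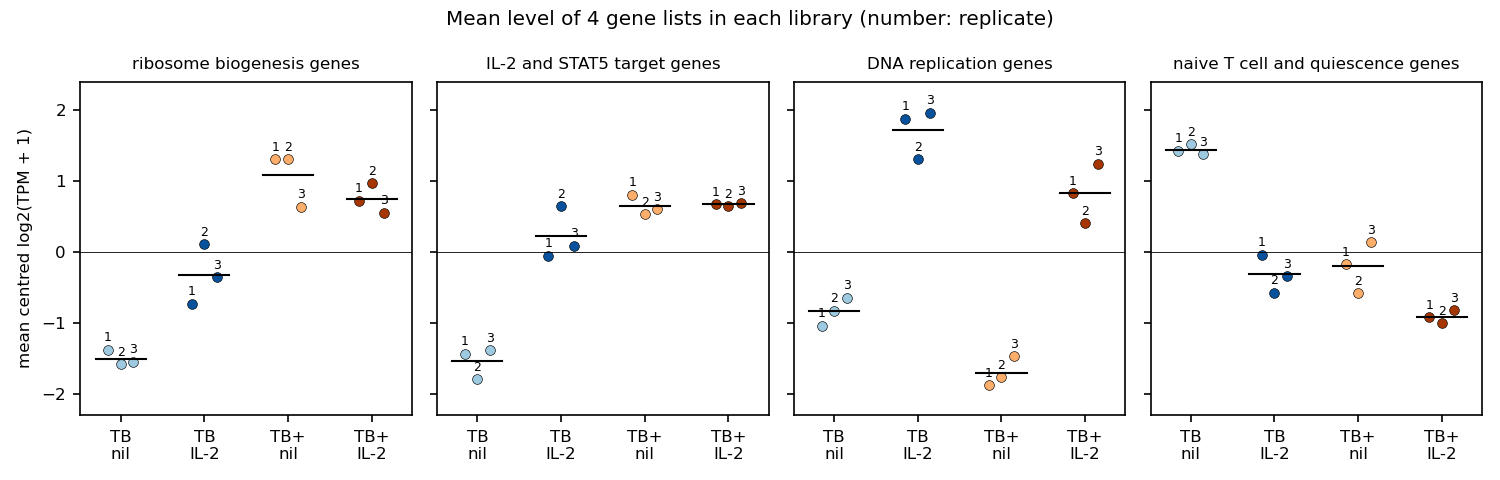
Mean over 4 gene lists of log2(TPM + 1), centred per gene over the 12 libraries, with 1 point per library numbered by replicate and a bar at the group mean. Ribosome biogenesis genes and IL-2 and STAT5 targets are lowest in the 3 TB IL-2nil libraries, DNA replication genes are higher with IL-2 in both TB and TB+, and naive T cell genes are highest in TB IL-2nil.

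*Il7r*, the alpha chain of the IL-7 receptor, was at 96.1, 25.2 and 42.3 TPM in TB IL-2, 836, 562 and 368 TPM in TB IL-2nil, 85.6, 43.6 and 51 TPM in TB+ IL-2 and 236, 105 and 196 TPM in TB+ IL-2nil. The TB IL-2nil libraries were the highest, and the TB+ IL-2nil libraries remained above those of TB+ IL-2. Its contrast was 2.00 (SE 0.69, adjusted P = 0.121), with a 95% interval of 0.48 to 3.52, and the adjusted P was 0.0189 with the block, in a range of 0.0189 to 0.914 over all alternatives. *Tcf7*, a factor of naive and memory T cells, had 1.38 (SE 0.70, adjusted P = 0.268) and an interval of -0.17 to 2.93, and *Ccr7*, a lymph node homing receptor, had 0.58 (SE 0.65, adjusted P = 0.625) and -0.84 to 2.00.

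An IL-2 effect created after PMA/I was seen in 31 genes in the higher and 36 in the lower direction. *Mrpl34*, a protein of the large mitochondrial ribosomal subunit, was at 33.2, 39 and 47.8 TPM in TB IL-2, 45.3, 37.9 and 31.9 TPM in TB IL-2nil, 16.9, 17.1 and 31.8 TPM in TB+ IL-2 and 3.15, 7.18 and 3.46 TPM in TB+ IL-2nil. The TB groups overlapped, and the 3 TB+ IL-2nil libraries were the lowest. The IL-2 effect on *Mrpl34* was 0.06 before PMA/I (adjusted P = 0.907) and 2.04 after it (adjusted P = 0.00133), and its contrast 1.99 (SE 0.43, adjusted P = 0.0322). *Haus3*, of the augmin complex of the spindle, likewise had 4.44 to 13.4 TPM in TB+ IL-2nil against 26.3 to 67.8 TPM in the other 9 libraries, with a contrast of 1.93 (SE 0.48, adjusted P = 0.0497). *Twf2*, the actin-binding protein twinfilin-2, had 8.42 to 21.7 TPM in TB+ IL-2nil and 27.4 to 43.9 TPM in TB+ IL-2, with a contrast of 1.80 (SE 0.41, adjusted P = 0.0374). In the higher direction, PMA/I lowered 27 of the 31 genes in cells without IL-2 and 18 in cells with it. The medians were -1.74 and -0.61, against -0.38 and -0.22 over all genes. These effects share libraries with the contrast that chose the genes, so they are a description. In the lower direction, *Lonrf1* had 18.9 to 29.9 TPM in TB+ IL-2nil, 8.08 to 10.2 TPM in TB+ IL-2 and at most 1.98 TPM before PMA/I, with a contrast of -1.85 (SE 0.40, adjusted P = 0.0317). With the block its IL-2 effect before PMA/I, 0.53, also passed (adjusted P = 0.0214), so that it reversed.

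Effects that kept their sign were few. *Fabp5*, a carrier of fatty acids, located on chromosome 3 (plus strand, bases 10012548 to 10016607), was at 66.1, 87 and 92.6 TPM in TB IL-2, 7.15, 4.78 and 6.23 TPM in TB IL-2nil, 94.6, 115 and 117 TPM in TB+ IL-2 and 48.9, 81.8 and 64.7 TPM in TB+ IL-2nil, higher with IL-2 and without overlap on both sides. Its IL-2 effect was 3.56 before PMA/I (adjusted P = 1.35e-05) and 0.76 after it (adjusted P = 0.0322), and the contrast -2.80 (SE 0.31, adjusted P = 0.0106). *Ranbp1*, a regulator of the GTPase RAN, had -2.14 (SE 0.33, adjusted P = 0.0125), *Ung*, the uracil-DNA glycosylase, -2.06 (SE 0.41, adjusted P = 0.0265), and *Cdc6*, which loads the replicative helicase, -1.78 (SE 0.43, adjusted P = 0.0434). *Tcp11l2*, which IL-2 lowered on both sides, had 2.19 (SE 0.53, adjusted P = 0.0438). The 2 strengthened genes were *Nsmce4a*, a subunit of the SMC5/6 complex, and *Oxct1*, an enzyme of ketone use. *Nsmce4a* was at 77.3, 72.7 and 85 TPM in TB IL-2, 53.9, 50.8 and 53.1 TPM in TB IL-2nil, 45.5, 52.7 and 65.6 TPM in TB+ IL-2 and 14.1, 17.4 and 19.6 TPM in TB+ IL-2nil, with a contrast of 1.06 (SE 0.24, adjusted P = 0.0374), and *Oxct1* had 0.86 (SE 0.20, adjusted P = 0.0422). In both the TB+ IL-2nil libraries were the lowest.

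For genes of cell division the IL-2 effect was of similar size on both sides. IL-2 raised 37 of 38 DNA replication genes both before PMA/I (median 2.72) and after it (median 2.64). Over all genes 39.6% and 21.3% were called in either direction, with median effects of -0.13 and -0.04. The contrast called 2 of them lower (5.26%, against 2.66% of all genes), *Cdc6* and the replication clamp *Pcna* (-1.25 (SE 0.27, adjusted P = 0.0333)), and 0 higher. The list's median contrast was 0.15, and turned to -0.37 with quantile normalization and -0.13 without the 2 moved libraries. Mitosis genes had 0 of 30 called, with median IL-2 effects of 2.04 and 2.37, and histone genes 0 of 64, with 2.60 and 2.63. The median contrast of mitosis genes, 0.32, turned to -0.11 with quantile normalization and -0.32 without the moved libraries, and that of histone genes, 0.12, to -0.21 without the moved libraries. Of these 30 and 64 genes, 0 and 2 had an unadjusted P under 0.05 in limma, and 2875 of all 12442 genes did. Histone genes are near-identical copies, so how their reads were divided is uncertain.

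**Figure D4:**
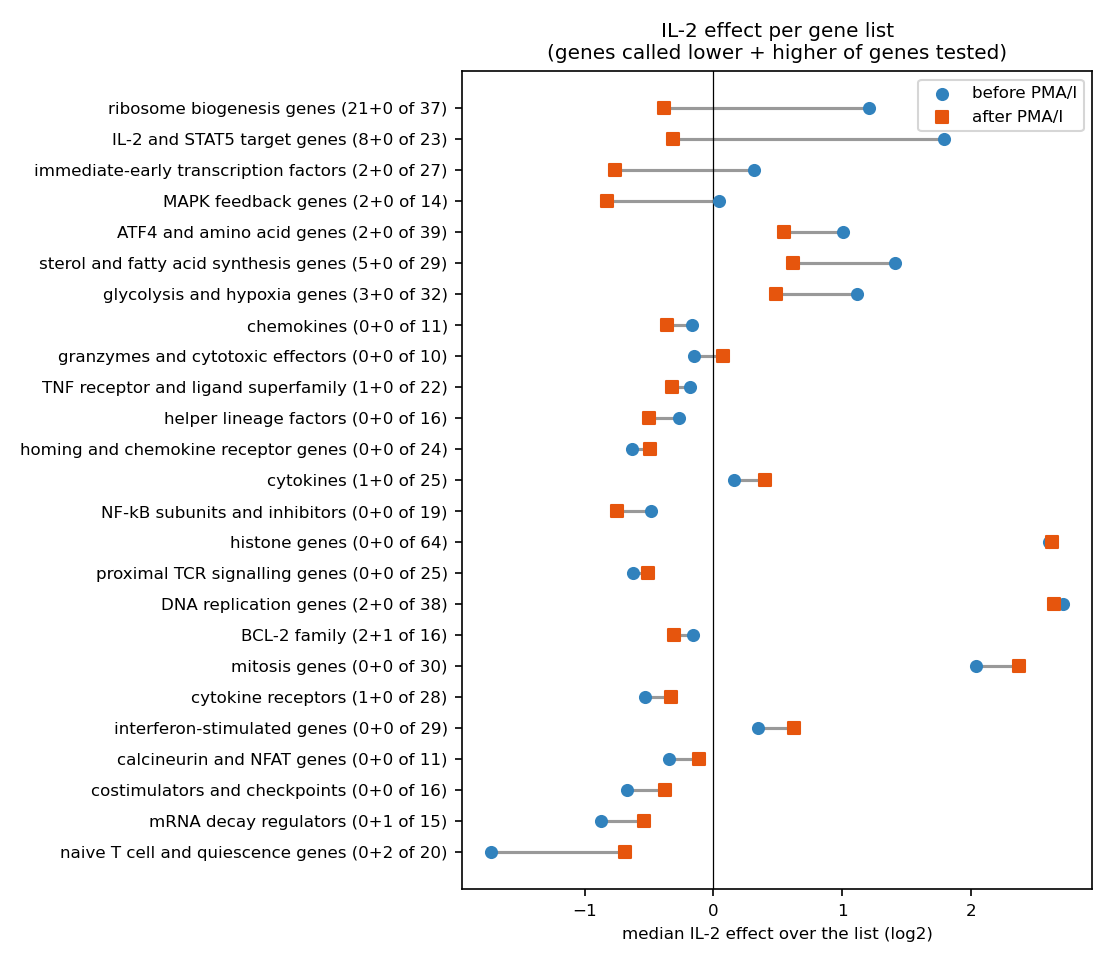
Median IL-2 effect over each of the 25 gene lists before PMA/I (circles) and after it (squares), on the log2 scale, with the number of genes called lower and higher in the contrast and the number tested beside each name. The wide gaps are those of ribosome biogenesis genes, IL-2 and STAT5 targets, immediate-early factors, MAPK feedback genes and naive T cell genes.

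Of 25 cytokine genes, 21 of which PMA/I raised in cells without IL-2 and 19 in cells with it, 1 (4%, *Lif*) was lower and 0 higher, close to the 2.66% and 1.57% of all genes. Their median PMA/I effect was 3.73 without IL-2 and 3.49 with it, against -0.38 and -0.22 over all genes. *Csf2*, which encodes GM-CSF, was at 3.41, 4.27 and 2.31 TPM in TB IL-2, 0.896, 0 and 1.04 TPM in TB IL-2nil, 2332, 3656 and 1736 TPM in TB+ IL-2 and 730.2, 754 and 442 TPM in TB+ IL-2nil. It was higher with IL-2 without overlap on both sides, at 1.44 before PMA/I (adjusted P = 0.00810) and 1.97 after it (adjusted P = 0.00323), and its contrast was 0.54 (SE 0.50, adjusted P = 0.548) with an interval of -0.55 to 1.62. *Il3* had 0.262, 0 and 0 TPM in TB IL-2, 0.380, 1.65 and 0.377 TPM in TB IL-2nil, 3751, 5779 and 2026 TPM in TB+ IL-2 and 1949.7, 1777 and 752 TPM in TB+ IL-2nil. Its RNA was thus above 1.65 TPM only after PMA/I, and there all IL-2 libraries were above those without it. Its contrast was 2.02 (SE 0.62, adjusted P = 0.0878), with an interval of 0.66 to 3.38, and its adjusted P was 0.0235 with the block, in a range of 0.0235 to 0.933.

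The contrast of *Il2* itself was 0.87 (SE 0.79, adjusted P = 0.540), with an interval of -0.87 to 2.62, and that of *Ifng* was 0.16 (SE 0.65, adjusted P = 0.907), with -1.27 to 1.58. *Il13* had -0.53 (SE 0.88, adjusted P = 0.753) and -2.47 to 1.41, *Il24* 0.48 (SE 0.94, adjusted P = 0.794) and -1.58 to 2.54, and *Il31* 1.80 (SE 0.87, adjusted P = 0.241) and -0.10 to 3.71. *Il31* is listed at 0 in all 6 TB libraries. None of these 5 passed the test, and the intervals leave differences of more than 1 in log2 on at least 1 side. The contrast compares the IL-2 effect before and after PMA/I, and does not say whether IL-2 changed the level after it. The paper lists *Il13*, *Ifng*, *Il24* and *Il31*, beside *Csf2* and *Il3*, among genes whose induction IL-2 removal changed at least 2-fold. It also measured some of these genes by quantitative PCR, after IL-2 removal and with the JAK inhibitor Ruxolitinib. *Gzmb*, a granzyme of cytotoxic cells, was at 389, 581 and 594 TPM in TB IL-2, 19, 1.95 and 12 TPM in TB IL-2nil, 401, 381 and 532 TPM in TB+ IL-2 and 33.5, 57.2 and 28.6 TPM in TB+ IL-2nil. IL-2 raised it without overlap on both sides, at 5.81 before PMA/I (adjusted P = 7.59e-05) and 3.48 after it (adjusted P = 0.00205), and its contrast was -2.34 (SE 0.80, adjusted P = 0.118), with an interval of -4.09 to -0.58.

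The other lists gave 1 call or none. Among 28 cytokine receptors *Il2ra* alone was called (3.57% lower, close to the 2.66% of all genes). Among 15 mRNA decay regulators *Tob1* alone was called (6.67% higher, against 1.57% of all genes). No gene was called among 11 chemokines, 19 NF-kB subunits and inhibitors, 11 calcineurin and NFAT genes, 16 helper lineage factors, 10 granzymes and cytotoxic effectors, 16 costimulators and checkpoints, 24 homing and chemokine receptor genes, 29 interferon-stimulated genes and 25 proximal TCR signalling genes, of which 1, 4, 3, 2, 1, 2, 6, 4 and 3 had an unadjusted P under 0.05 in limma. Over all 12442 genes tested, 2875 had an unadjusted P under 0.05 in this contrast in limma. Markers of T cells summed to 2050 to 4648 TPM over the 12 libraries, with all 9 listed markers over 1 TPM. NK cell markers summed to at most 0.295 TPM with 3 of 5 at 0 throughout, and myeloid markers to 1.52 to 4.74 TPM with 2 of 8 at 0. CD8 markers summed to 5.41 to 42.8 TPM, and erythroid markers to 0.106 to 12.4 TPM with 1 of 5 at 0. Among 5 markers of regulatory T cells, summing to 182 to 510.4 TPM, *Lrrc32*, which holds latent TGF-beta on the cell surface, was called at -3.27 (SE 0.66, adjusted P = 0.0266), and the other 4 were not. This makes 20% of the markers lower, against 2.66% of all genes.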

How the data were processed

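The authors sequenced 12 rRNA-depleted, strand-specific RNA libraries. Per the labels and methods, reads were trimmed with Trimmomatic 0.32, aligned to mm9 with HISAT2 2.1.0 and quantified on RefSeq genes with StringTie 1.3.3. The deposited values are FPKM per gene, with no scaling between libraries and no counts, so depth is known only relatively, from the steps between low values (0.403 to 1.24 of the median, 3.07-fold in all, by the label least in TB IL-2nil replicate 2). Their sums were 193815 to 420487 per library, and short non-coding RNAs took 16.6 to 53.2%. As placed, they took 53.2, 40.2 and 33.0% in TB+ IL-2nil and 22.2, 27.5 and 22.7% in TB+ IL-2, without overlap. Before PMA/I the shares were 16.6, 43.8 and 22.0% in TB IL-2 and 21.3, 37.5 and 35.4% in TB IL-2nil. A refit without these RNAs is among the alternatives.

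Here each library was rescaled to TPM, genes that exceeded 1 TPM in any library (1 or more) entered the tests, libraries were scaled to a common 75th percentile of the kept genes, and log2(TPM + 1) was modelled by limma 3.58.1 under R 4.3.3, using 4 groups, 8 residual degrees of freedom and no block. P-values were adjusted by Benjamini-Hochberg over 12442 genes. The script was tested on simulated data. Intervals are 95% and use the moderated degrees of freedom. Tables were made in Python 3.11.15 (pandas 2.3.3, numpy 2.4.6, scipy 1.17.1) and figures with matplotlib 3.10.9.

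Replicate numbers come from the labels, and no source used here says what libraries of 1 number share. As placed, all 18 pairs of the same number deviated together from their group means (r 0.101 to 0.531, against -0.416 to 0.171 for 36 other pairs), so blocked values are given where they change a call or move a count by over 1.5 times. Placement compared 1244 to 1359 values of the study's table per column with quantile-normalized deposited values, over 1381 genes. The best library met 93.3 to 99.1% within 0.1% and the next at most 0.59%.

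The genes, lists and the contrast were chosen with earlier results of these data known. Named genes were the 10 largest contrasts in each direction and the 5 largest per class, among called genes at 5 TPM or more in a group mean, of the same sign in all replicate numbers and not predicted, non-coding or histone genes, then called members of the lists, then fixed genes from *Il2* to *Il7r*. Some genes that these rules pick are not reported here. *Zfp61* and *4930515G01Rik* were named as the genes at the threshold after their values were seen. Alternatives were 23 refits and a limit of 2-fold.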

Additional observations from a re-analysis of the deposited data

Results flagged for a closer look

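The results listed here stand out because the IL-2 effect differed between cells before and after PMA/I, with 331 genes lower and 195 higher. The same contrast chose the genes, so their values are a description and no separate evidence of a difference. Lost means only that the IL-2 effect after PMA/I did not pass the threshold. In *Cish*, *Myc*, *Spry1* and *Mfsd2a* all TB+ IL-2nil libraries were above all TB+ IL-2 libraries. Among named genes whose effect was lost, the log2 differences were -4.80 for *Lif*, -4.46 for *Cish*, -3.73 for *Myc*, -3.71 for *Spry1*, -3.57 for *Ppa1*, -3.40 for *Mfsd2a*, -3.37 for *Cdca7*, -3.29 for *Srm* and -3.27 for *Lrrc32*. On the other side they were 2.59 for *Fam46c*, 2.48 for *Mturn*, 2.47 for *N4bp2l1*, 2.41 for *Fbxo32*, 2.30 for *H60b*, 2.25 for *Spata13*, 2.21 for *Mylip* and 2.08 for *Ifi214*.

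IL-2 effects of opposite sign before and after PMA/I gave -3.96 for *Socs1*, -2.45 for *Socs3*, -2.38 for *Atf3*, -2.36 for *Utp14b* and -2.22 for *Epcam*. Effects that passed the test only after PMA/I gave 1.99 for *Mrpl34*, 1.93 for *Haus3*, -1.85 for *Lonrf1* and 1.80 for *Twf2*. Where the sign was kept, the differences were -2.80 for *Fabp5*, 2.19 for *Tcp11l2*, -2.14 for *Ranbp1*, -2.06 for *Ung*, -1.78 for *Cdc6*, 1.06 for *Nsmce4a* and 0.86 for *Oxct1*. With 3 libraries per group, no group was searched for a library standing apart.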

How the results depend on the processing

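All 526 genes called in the contrast kept their sign in every refit that tested them, while the counts of calls moved widely. The refits reuse libraries that chose these genes, so the kept sign is no separate support. With the libraries as labelled there were 0 genes higher, 0 genes lower, 15 with an IL-2 effect before PMA/I, 27 with an effect after it, 0 lost, 0 created, 0 reversed and 0 kept in sign. Without scaling between libraries there were 0 genes higher, 1 gene lower, 2650 with an IL-2 effect before PMA/I, 1486 with an effect after it, 1 lost, 0 created, 0 reversed and 0 kept in sign. Without both moved libraries there were 3 genes higher, 1 gene lower, 1200 with an effect after it, 1 lost, 3 created, 0 reversed and 0 kept in sign. With the replicate block there were 760 genes higher, 718 genes lower, 4186 with an effect after it, 927 lost, 278 created, 124 reversed and 141 kept in sign. With a pseudocount of 0.1 there were 62 genes higher, 179 genes lower, 179 lost, 24 created and 12 kept in sign. With a pseudocount of 5 there were 396 genes higher, 602 lost, 119 created and 68 kept in sign. With quantile normalization there were 65 kept in sign. At more than 2-fold there were 2430 with an IL-2 effect before PMA/I and 1223 with an effect after it. Leaving out 1 library at a time gave 21 to 662 genes higher, 63 to 640 genes lower, 3636 to 5047 with an IL-2 effect before PMA/I, 1427 to 2568 with an effect after it, 61 to 894 lost, 6 to 219 created, 10 to 82 reversed and 0 to 64 kept in sign. The exclusion of short non-coding RNAs, the variance trend, no filter and over 1 TPM in 3 libraries moved none of these 8 counts by over 1.5 times. Of 34 called genes named by the rule, each under 24 alternatives, 508 of 816 values stayed past the threshold and 308 did not, none with a change of sign. Of the 11 named genes that were not called, the values of *Il3*, *Tcf7* and *Il7r* passed the threshold in 4 of 264 cases, and 11 turned in sign: *Il13* 0.31 (pseudocount of 5), 0.13 (without TB IL-2 replicate 1) and 0.11 (without TB+ IL-2nil replicate 1), *Csf2* -0.81 (pseudocount of 0.1), *Ifng* -0.21 (pseudocount of 0.1), -0.17 (without TB IL-2 replicate 1), -0.38 (without TB+ IL-2 replicate 2), -0.09 (without TB+ IL-2 replicate 3) and -0.04 (without TB+ IL-2nil replicate 1), *Il24* -1.69 (pseudocount of 0.1) and -0.39 (without TB+ IL-2 replicate 2). With 1 library left out, the lowest and highest values were -0.95 and 0.13 for *Il13*, -0.38 and 0.43 for *Ifng*, and -0.39 and 1.08 for *Il24*. The replicate block moved the counts listed for it and, of the named genes, the calls of *Il3* and *Il7r*, and changed no call of the 34. The cause of these changes was not tested, except that leaving out libraries leaves fewer degrees of freedom. Depth is known only relatively, so values near 0 TPM are the least certain, above all in TB IL-2nil replicate 2 by the label.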

Other observations

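Gene groups next to those above were put together after the values had been seen, so their counts are descriptions with no support of their own. The same holds for their medians. Of all genes tested, 2.66% were lower and 1.57% higher. Of 11 polyamine genes, 3 (27.3%) were lower. They were *Srm*, *Odc1*, the ornithine decarboxylase that starts the pathway (-2.05 (SE 0.37, adjusted P = 0.0198)), and *Azin1*, which spares it from degradation (-1.20 (SE 0.23, adjusted P = 0.0251)). *Oaz2*, an antizyme that targets the decarboxylase for degradation, was higher (1.0 (SE 0.25, adjusted P = 0.0495)). *Odc1* was at 171, 197 and 139 TPM in TB IL-2, 54.2, 80.9 and 53.1 TPM in TB IL-2nil, 634, 507 and 410.5 TPM in TB+ IL-2 and 1038, 805 and 581 TPM in TB+ IL-2nil, so that IL-2 went with more before PMA/I, without overlap, and the groups overlapped after it. With the block its effect after PMA/I, -0.63, passed the test in limma (adjusted P = 0.0303, against 0.110 without it).

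Of 21 genes of nucleotide synthesis 7 (33.3%) were lower. Among them were *Ctps* (-3.19 (SE 0.43, adjusted P = 0.0108)), the CTP synthase, *Umps* (-2.16 (SE 0.31, adjusted P = 0.0116)) of the pyrimidine pathway and *Ppat* (-2.11 (SE 0.44, adjusted P = 0.0280)), which starts that of purines. *Ctps* was at 30.3, 39.3 and 33.4 TPM in TB IL-2, 7.06, 2.79 and 4.16 TPM in TB IL-2nil, 82, 83.8 and 66.4 TPM in TB+ IL-2 and 129, 139.8 and 70.4 TPM in TB+ IL-2nil, with no overlap before PMA/I and overlap after it. Nuclear transport had 8 of 24 (33.3%) lower, such as the importins *Ipo5* (-2.45 (SE 0.30, adjusted P = 0.0106)) and *Ipo4* (-2.27 (SE 0.48, adjusted P = 0.0307)), and *Rcc1* (-2.42 (SE 0.34, adjusted P = 0.0116)), the exchange factor of RAN. Protein folding had 6 of 24 (25%) lower, such as the chaperones *Hsp90aa1* (-2.36 (SE 0.29, adjusted P = 0.0106)) and *Hspa9* (-2.06 (SE 0.35, adjusted P = 0.0174)) and the chaperonin subunit *Cct3* (-1.41 (SE 0.29, adjusted P = 0.0284)). These 4 groups had median contrasts of -0.63, -0.97, -0.90 and -0.67, against 0.16 for all genes.

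In the group of 19 FOXO targets, 5 (26.3%) were higher and 0 lower, and the median contrast was 1.46. IL-2 lowered 18 of the 19 before PMA/I and 4 after it, where it changed 39.6% and 21.3% of all genes in either direction. Beside *Fbxo32*, *Bmf*, *Tob1* and *Btg1*, the fifth was *Sesn1* (1.35 (SE 0.31, adjusted P = 0.0396)), a sestrin that restrains mTORC1, at 17.8, 13.4 and 22.5 TPM in TB IL-2, 64.6, 98.5 and 61.4 TPM in TB IL-2nil, 8.78, 7.32 and 7.08 TPM in TB+ IL-2 and 14.3, 12 and 11.9 TPM in TB+ IL-2nil. The TB IL-2nil libraries were the highest, and the TB+ IL-2nil libraries were still above those of TB+ IL-2.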
